A study of Mus musculus with 4 samples.

Results

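The genes described here encode 10 costimulatory and coinhibitory surface molecules that macrophages can present to T cells. Most are ligands of the B7 and tumor necrosis factor (TNF) families. All are called ligands below for short, although CD40 is a receptor and CD83 a surface marker of mature dendritic cells. The 10 genes are *Cd80*, *Cd86*, *Cd40*, *Cd274*, *Pdcd1lg2*, *Icosl*, *Cd276*, *Tnfsf9*, *Tnfsf4* and *Cd83*. Each was found by its symbol in the annotation of the array, through probe sets that carry 1 gene symbol, and all 10 are among the 19946 genes measured. *Cd80* has 2 probe sets, of which the brighter was used, and the others have 1 each. They were compared between alveolar macrophages (AM), the resident phagocytes of the airspaces, of WT mice and of mice lacking TREM-2, an innate immune receptor of myeloid cells (TREM2-/-, written *Trem-2-/-* below). The study asked how TREM-2 shapes AM and their uptake of bacteria, and the arrays record the baseline of untreated cells.

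T cells that meet their antigen on MHC class II also read accessory ligands on the presenting cell. CD80 and CD86 engage CD28, which supports activation, and CTLA-4, which restrains it. ICOS ligand acts through ICOS, the PD-1 ligands PD-L1 and PD-L2 dampen activated T cells, and the TNF family ligands 4-1BBL and OX40L prolong T cell responses. CD40 works in the reverse direction, since it receives CD40 ligand from T cells and licenses the presenting cell. AM are known as weak stimulators of T cells compared with dendritic cells.

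AM of C57/Blk6 mice aged 8 to 10 weeks were recovered by bronchoalveolar lavage, with 2 arrays for WT and 2 for *Trem-2-/-* AM. The *Trem-2-/-* mice had been backcrossed for 10 generations, and the WT mice were purchased from a commercial breeder. The paper states that mice of both genotypes were bred in one university facility. No agent was given to any group. Each array carries RNA of several mice combined, and neither the number of mice in a pool nor whether the pools of a genotype shared mice is given. The p-values therefore reflect nothing beyond the scatter among these 4 arrays, and that scatter may be technical. The 2 arrays of a genotype correlated with Pearson's r of 0.998 (WT) and 0.998 (*Trem-2-/-*) over genes, against 0.996 between genotypes, and genes are not independent replicates. Values are log2 expression after robust multi-array averaging, and the number of arrays limits the precision. *Trem2* itself was 4.33-fold higher in WT AM, and the genotypes did not overlap. Of 16 measured AM markers, 13 lay above the upper quartile of every array, among them *Lpl*, *Ctsk* and *Atp6v0d2*.

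Of the 10 ligands, *Icosl* and *Cd86* were higher in *Trem-2-/-* AM and none was lower. *Icosl* was 1.63-fold and *Cd86* 1.56-fold above WT, while the other 8 differed by log2 fold changes between -0.17 and 0.17 and did not pass the test. The test was limma with a Benjamini-Hochberg adjusted p over all 19946 genes and a threshold of 0.05. By this test 0.431% of all genes were higher in *Trem-2-/-* AM and 0.135% were lower, against 2 and 0 of the 10 ligands. An unadjusted p below 0.05 from limma was given to 11.5% of all genes and to the same 2 ligands, and counts of such p-values in the lists below are to be read against that share. Significance analysis of microarrays (SAM), the method the study names, also called *Icosl* and *Cd86* higher, beside 0.832% of all genes. The median log2 fold change of the 10 ligands was 0.07, and that of all genes was -0.02. Because RNA of whole cell pools was measured, a changed number of cells of a type and a changed amount of RNA per cell cannot be told apart for any of these genes.

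**Figure D1:**
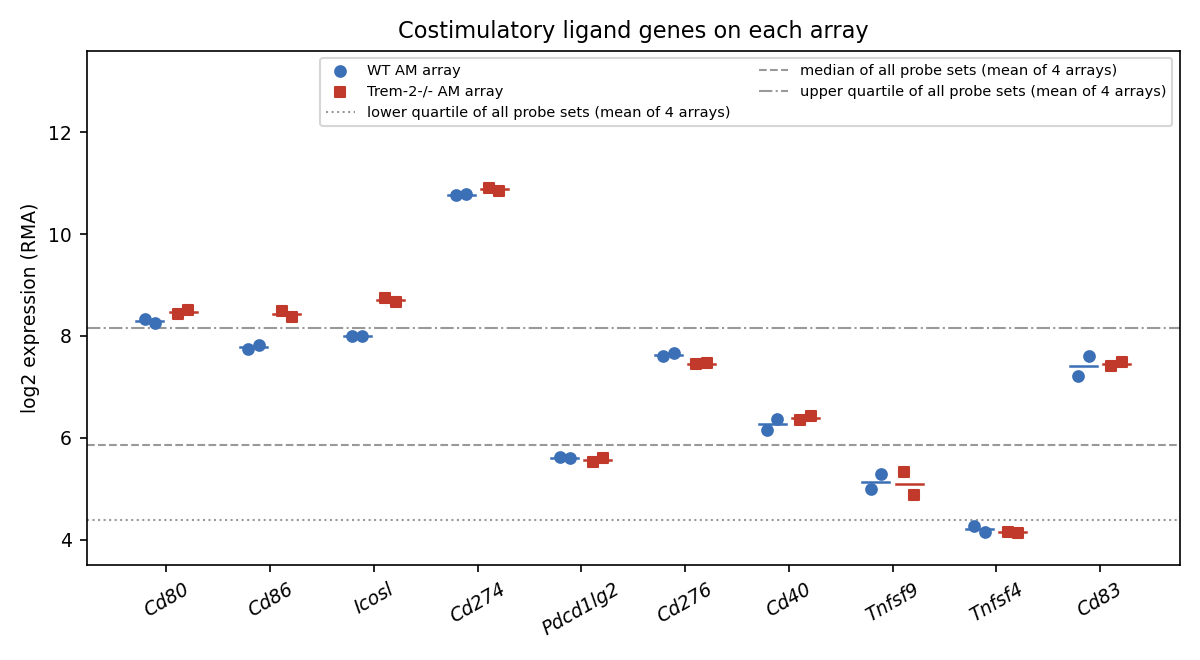
Log2 expression (vertical axis) of the 10 ligand genes on each array, with circles for the 2 WT arrays, squares for the 2 *Trem-2-/-* arrays, short lines for the genotype means and grey lines for the quartiles of all probe sets, averaged over the 4 arrays. *Icosl* and *Cd86* lie below the upper quartile on the WT arrays and above it on the *Trem-2-/-* arrays. Heights of different genes are not comparable, since each probe set has its own brightness.

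The region before the start of *Icosl* is shown because this gene changed most among the ligands, and that of *Cd80* because it is the closest relative of *Cd86* with an entry. Of the 10 ligands, 5 had an entry among the RefSeq promoters of build GRCm38.p6. *Cd86*, *Cd40*, *Tnfsf9*, *Tnfsf4* and *Cd83* are only named here. The 250 bases upstream of each start are given 5′ to 3′. *Icosl* spans chr10:78069118-78069367 and *Cd80* chr16:38458683-38458932, both on the plus strand. Capitals mark the matches to the motifs searched on both strands.
Icosl: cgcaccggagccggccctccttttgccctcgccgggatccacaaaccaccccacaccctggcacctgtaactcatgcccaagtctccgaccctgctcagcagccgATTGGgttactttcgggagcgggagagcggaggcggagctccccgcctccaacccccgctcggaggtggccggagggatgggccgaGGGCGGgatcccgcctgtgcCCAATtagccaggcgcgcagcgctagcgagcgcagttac
Cd80: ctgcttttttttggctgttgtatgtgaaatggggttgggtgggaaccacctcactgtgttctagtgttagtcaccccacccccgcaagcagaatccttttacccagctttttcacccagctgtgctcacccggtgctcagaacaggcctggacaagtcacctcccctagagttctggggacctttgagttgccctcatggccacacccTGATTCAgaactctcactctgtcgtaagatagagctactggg

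In the *Icosl* window the capitals are 2 CCAAT boxes (CCAAT, or ATTGG on the other strand), 145 to 141 and 39 to 35 bases before the start, and 1 GC box (GGGCGG), 59 to 54 bases before it. Over 32851 promoter windows of the same length, 33.8% hold a CCAAT box and 32.7% a GC box. The *Icosl* window holds 68.8% G and C and 23 CpG, against medians of 52.4% and 6 over all windows. In the *Cd80* window the capitals mark an AP-1 site (TGANTCA), which 6.75% of the windows hold, 42 to 36 bases before the start, and the window holds 52.8% G and C and 3 CpG. *Cd276* had 2 CCAAT boxes and 3 GC boxes, *Cd274* had 1 GC box, and *Pdcd1lg2* had none of the motifs searched. A TATA box (TATAAA, in 12.4% of all windows), a STAT site (TTCNNNGAA, in 7.02%), an ISRE core (in 2.98%) and an NF-kB consensus form (in 1.41%) were found in none of the 5 windows. A match describes letters in the window, not binding.

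*Cd86* encodes the B7 ligand that antigen-presenting cells carry at rest and raise on activation. Its log2 values were 7.74 and 7.83 on the WT arrays and 8.49 and 8.37 on the *Trem-2-/-* arrays. Both *Trem-2-/-* arrays lay above both WT arrays, with 0.54 between the nearest values of the genotypes, whereas arrays of a genotype lay within 0.12 of each other. The log2 fold change was 0.65 (standard error 0.08, 95% interval 0.45 to 0.84, adjusted p = 0.041 from limma). This call was lost after quantile normalization, where the adjusted p from limma was 0.054.

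*Cd80* encodes the other B7 ligand of CD28 and CTLA-4. It stood at 8.34 and 8.26 on the WT arrays and at 8.43 and 8.51 on the *Trem-2-/-* arrays. The genotypes did not overlap, but the nearest values lay only 0.09 apart, and the gene did not pass limma's test, at 0.17 on the log2 scale (95% interval -0.01 to 0.36, adjusted p = 0.47). The dimmer *Cd80* probe set differed by 0.08, with overlapping genotypes. The change of *Cd86* exceeded that of *Cd80* by 0.47 on the log2 scale. This difference was not tested. An exact permutation of 2 against 2 arrays cannot reach a two-sided p below 0.333, for this difference or for any single gene. The limma calls rest instead on a variance estimate that borrows from all genes.

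*Icosl* encodes the ligand of ICOS, a costimulatory receptor of activated and follicular helper T cells. Its log2 values were 8.00 and 8.00 on the WT arrays and 8.74 and 8.67 on the *Trem-2-/-* arrays. The genotypes were 0.67 apart at their nearest values, and the arrays of a genotype differed by at most 0.08. The log2 fold change was 0.71 (standard error 0.07, 95% interval 0.53 to 0.89, adjusted p = 0.020 from limma), which ranks 65 of the 86 genes that were higher, with *Cd86* at rank 75. Leaving out any of the 4 arrays ended both calls, although the log2 fold changes stayed between 0.67 and 0.75 for *Icosl* and between 0.59 and 0.70 for *Cd86*. The adjusted p from limma was then 0.11 to 0.16 for *Icosl* and 0.13 to 0.24 for *Cd86*.

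**Figure D2:**
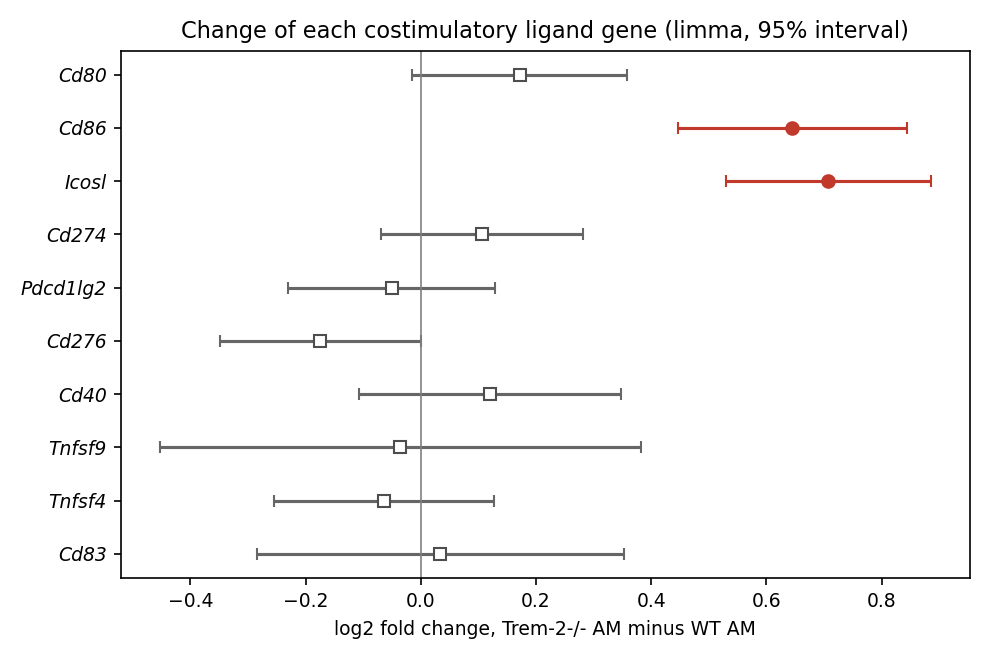
Log2 fold change (horizontal axis, *Trem-2-/-* minus WT) of the 10 ligand genes with its 95% interval from limma, 2 arrays per genotype. Filled red circles passed the adjusted threshold of 0.05 and open squares did not. The intervals of *Cd86* (0.45 to 0.84) and *Icosl* (0.53 to 0.89) lie above all other point estimates.

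The coinhibitory ligands did not pass the test. *Cd274*, which encodes PD-L1, stood above the upper quartile of every array, at 10.76 and 10.79 in WT and 10.91 and 10.85 in *Trem-2-/-* AM. The genotypes did not overlap, and the log2 fold change was 0.11 (95% interval -0.07 to 0.28, adjusted p = 0.64 from limma). *Pdcd1lg2*, the neighbouring gene on chromosome 19, encodes PD-L2 and stood between the lower quartile and the median, at 5.62 and 5.60 in WT and 5.52 and 5.60 in *Trem-2-/-* AM. Its log2 fold change was -0.05 (95% interval -0.23 to 0.13), so that rises or falls within those bounds cannot be told from no change at this number of arrays.

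*Cd276* encodes B7-H3, a family member whose receptor on T cells is not settled. It was the lowest of the 10 by fold change, with 7.61 and 7.66 in WT and 7.45 and 7.47 in *Trem-2-/-* AM. Both *Trem-2-/-* arrays lay below both WT arrays, and the log2 fold change was -0.17 (standard error 0.07, adjusted p = 0.43 from limma). Counting without a test, both *Trem-2-/-* arrays lay above both WT arrays for 4 of the 10 ligands, *Cd80*, *Cd86*, *Cd274* and *Icosl*. They lay below them for 2, *Cd276* and *Pdcd1lg2*, for the latter with only 0.001 between the nearest values. Over all genes these patterns had shares of 17.4% above and 25.4% below. The change of *Icosl* exceeded that of *Cd276* by 0.88 and that of *Cd274* by 0.60 on the log2 scale, and these differences were likewise not tested.

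Among the TNF family genes none passed the test. *Cd40*, the receptor through which T cell help reaches the presenting cell, stood at 6.16 and 6.37 in WT and at 6.35 and 6.42 in *Trem-2-/-* AM, with overlapping genotypes and a log2 fold change of 0.12 (95% interval -0.11 to 0.35). *Tnfsf9*, which encodes 4-1BBL, had log2 values of 4.99 and 5.28 in WT and 5.34 and 4.87 in *Trem-2-/-* AM, so that the genotypes overlapped across their whole range. Its log2 fold change of -0.04 had the widest interval of the 10, from -0.45 to 0.38, and its sign turned when WT replicate 2 or *Trem-2-/-* replicate 2 was left out.

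*Tnfsf4*, which encodes OX40L, was below the lower quartile of every array, at 4.27 and 4.15 in WT and 4.16 and 4.14 in *Trem-2-/-* AM. A value this low carries little information on expression, and its log2 fold change was -0.06 (95% interval -0.25 to 0.13). *Cd83*, a surface marker of mature dendritic cells that limits the breakdown of CD86 and MHC class II, stood at 7.22 and 7.60 in WT and at 7.41 and 7.48 in *Trem-2-/-* AM. The WT arrays enclosed the *Trem-2-/-* arrays, the log2 fold change was 0.03 (95% interval -0.28 to 0.35), and without WT replicate 1 it was -0.16.

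**Figure D3:**
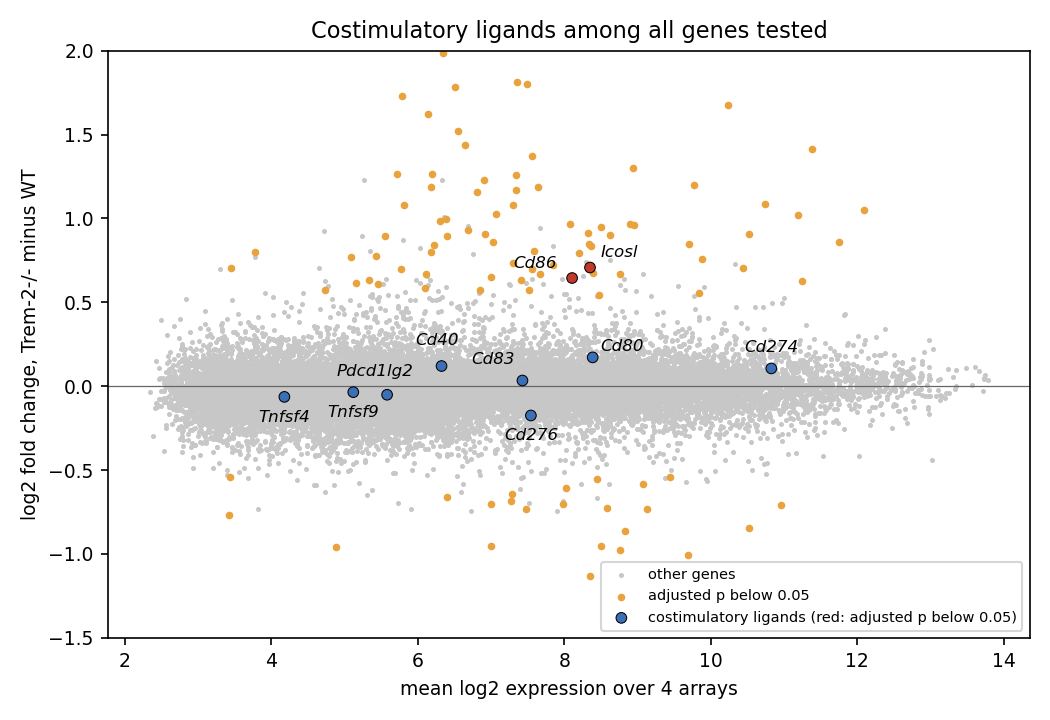
Log2 fold change (vertical axis, *Trem-2-/-* minus WT) against mean log2 expression over the 4 arrays (horizontal axis) for all 19946 genes, with genes of adjusted p below 0.05 in orange and the 10 ligands named. *Icosl* and *Cd86* (red) sit among the called genes and the other 8 (blue) within the bulk, and 13 genes beyond the plotted range of -1.5 to 2 are not drawn.

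The genes next to the ligands on the chromosomes, chosen after the values of the ligands were seen, did not pass the test. By limma's test 0.431% of all genes were higher and 0.135% were lower. Counting the nearest measured genes, 2 on each side, none of 36 passed limma's threshold. For *Cd86* these were *Stfa3*, *Casr*, *Ildr1* and *Slc15a2*, and for *Icosl* *Aire*, *Dnmt3l*, *Gatd3a* and *Pwp2*. Beside the targeted gene *Trem2*, *Treml2* was higher in *Trem-2-/-* AM, at 1.19 (adjusted p = 0.0026 from limma). *Treml1* differed by 0.60 (adjusted p = 0.10 from limma), *B430306N03Rik* by -0.09 and *Nfya* by 0.06, none of which passed.

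The receptors of the ligands, most of which T cells carry, served as the counterpart. None of 8 measured receptor and partner genes passed limma's test in either direction, and none had an unadjusted p below 0.05. Their log2 fold changes ran from -0.06 to 0.19 with a median of 0.05. The highest was that of *Icos*, the receptor gene for ICOS ligand, which stood between the lower quartile and the median. Its mean log2 value was 4.96 in WT and 5.15 in *Trem-2-/-* AM (adjusted p = 0.43 from limma). Both *Trem-2-/-* arrays lay above both WT arrays, as for 17.4% of all genes. *Cd28* stood at a mean log2 value of 4.56 in WT and 4.50 in *Trem-2-/-* AM, *Ctla4* at 4.35 and 4.42, and *Pdcd1*, which encodes PD-1, at 5.86 and 5.90. *Cd3e*, which encodes a chain of the T cell receptor complex, stood at 5.73 in WT and 5.61 in *Trem-2-/-* AM, below the median of all probe sets.

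The B7-like and butyrophilin genes outside the 10 gave no calls among 8 measured, with 1 unadjusted p below 0.05. *Vsir*, which encodes the checkpoint ligand VISTA, was bright and differed by -0.08 (adjusted p = 0.73 from limma), and *Btn2a2* differed by 0.26 (adjusted p = 0.62 from limma). Of 13 other TNF superfamily ligands none passed either, with 1 unadjusted p below 0.05 and a median log2 fold change of -0.02. *Tnf* differed by -0.03 and *Tnfsf13b*, which encodes the B cell survival factor BAFF, by 0.04.

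Other accessory and checkpoint molecules gave no calls among 13 genes, with 4 unadjusted p-values below 0.05 and a median log2 fold change of -0.00. The adhesion ligand gene *Icam1* differed by 0.16 and *Cd48* by 0.05. *Cd200*, singled out after its values were seen, had the largest difference of this list. It encodes the ligand of the inhibitory receptor CD200R. Its log2 values were 10.21 and 10.21 in WT and 9.58 and 9.73 in *Trem-2-/-* AM, without overlap. The log2 fold change was -0.56 (standard error 0.08, adjusted p = 0.068 from limma), and SAM did not call it. It passed with an intensity trend in the variance, where the adjusted p from limma was 5.9e-05, and among genes with a mean log2 value of at least 6, where it was 0.0093. It did not pass with the replicate block, quantile normalization, centring or the mean of probe sets, at 0.060 to 0.070, nor with any array left out, at 0.19 to 0.31.

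Upstream of the ligands, CD40 and NF-kB signalling drive several of them in activated cells. None of its 18 measured genes passed the test, with 4 unadjusted p-values below 0.05 and a median log2 fold change of 0.06. *Traf1* differed by 0.30 (adjusted p = 0.41 from limma), *Relb* by 0.07 and *Nfkb2* by 0.06. The largest change of this list was that of *Bcl2l1*, at -0.33 (adjusted p = 0.18 from limma), named after the values were seen. Of 16 interferon, cytokine and ubiquitin-ligase regulators none passed either, with 2 unadjusted p-values below 0.05. These belonged to *Irf1*, at 0.32 (adjusted p = 0.27 from limma), and *Jak2*, at 0.23 (adjusted p = 0.35 from limma). *Marchf1*, which encodes the ubiquitin ligase that removes CD86 and MHC class II from the surface, differed by 0.02. *Cmtm6*, which encodes a stabilizer of PD-L1, differed by 0.02 and *Irf8* by 0.10.

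MHC class II is the one list of the pathway with calls. Of its 9 measured genes, 4 were higher and none was lower, against 0.431% and 0.135% of all genes. An unadjusted p below 0.05 from limma was given to 6 of the 9, and the median log2 fold change was 0.44. Like the other lists, it was chosen with earlier results of these data known. The 4 calls were *H2-Aa*, *H2-Ab1* and *H2-Eb1*, on chromosome 17 as is *Trem2*, and *Cd74*, on chromosome 18. A part of the shared chromosome in these calls was not tested. *H2-Aa* rose by 1.02 (adjusted p = 0.0070 from limma), with log2 values of 10.62 and 10.74 in WT and 11.70 and 11.70 in *Trem-2-/-* AM. *Ciita*, the transactivator of class II genes, differed by 0.44 without passing (adjusted p = 0.12 from limma). Of the 4 class II calls, 3 were left without either WT array, 1 when *Trem-2-/-* replicate 1 was dropped and 2 when its replicate 2 was, and *H2-Aa* was lost when either *Trem-2-/-* array was dropped.

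**Figure D4:**
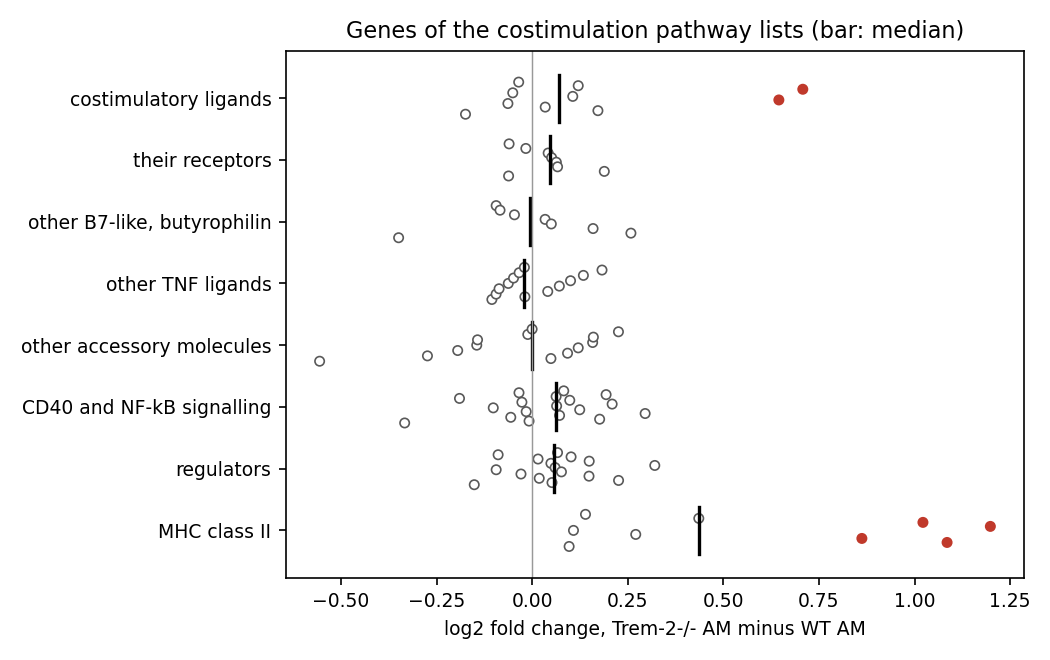
Log2 fold change (horizontal axis, *Trem-2-/-* minus WT) of each measured gene of the ligand list and 7 related lists, with filled red circles for genes that passed limma's threshold and a bar at the median of each list. Calls appear among the ligands (2 of 10) and MHC class II (4 of 9), and every other list has none. Vertical scatter within a list has no meaning.

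Markers of other cells were set beside the ligand calls. Of 14 measured markers of interstitial macrophages and monocytes, which can also carry CD86, 6 were higher and none was lower in *Trem-2-/-* AM, and their summed linear signal was 7861 to 7915 on the WT and 10602 to 11071 on the *Trem-2-/-* arrays. Without *Csf1r*, the brightest, it was 2248 to 2299 and 4590 to 4833. Where a sum without the brightest marker is given, here and below, that marker was left out after the values were seen. The neutrophil, epithelial and AM sums below include all measured markers. Among the 14, 10 log2 fold changes were positive and 4 negative. The 6 calls were *Pf4*, which rose by 1.98, *Apoe* by 1.67, *Tmem176b* by 1.26, *Ccr2* by 0.81, *Cx3cr1* by 0.67 and *Cd14* by 0.56. *Csf1r* differed by 0.13. *Apoe*, at a mean log2 value of 9.40 in WT and 11.08 in *Trem-2-/-* AM, weighs most in the *Trem-2-/-* sums without *Csf1r*. *Mgl2* differed by -0.23, *Lyve1* by -0.09, *Folr2* by -0.07 and *Maf* by -0.01. With any array left out, 3 of the 6 calls were kept, *Apoe*, *Pf4* and *Tmem176b*. Of these 14 genes 1 lay below the lower quartile. The part of these cells in the rise of *Cd86* and *Icosl* was not tested.

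Dendritic cell markers, which would mark the strongest carriers of CD86, gave no calls among 12 genes, and their summed signal was 779 to 787 on the WT and 725 to 766 on the *Trem-2-/-* arrays, or 649 to 655 and 638 to 655 without *Ccl22*, the brightest. None lay above the upper quartile. *Ccl22* differed by -0.41, *Clec9a* by -0.34 and *Fscn1* by 0.47, none of which passed. *Flt3* stood at 5.49 in WT and 5.57 in *Trem-2-/-* AM, *Zbtb46* at 6.32 and 6.19, and *Ccr7* at 5.85 and 6.21. B cell markers, another source of CD86 and ICOS ligand, gave no calls among 8 genes, with a summed signal of 1364 to 1371 in WT and 1224 to 1287 in *Trem-2-/-* AM. *Cd22*, at 10.16 and 10.00, gave most of that signal, and without it the other 7 markers summed to 213 to 234 in WT and 224 to 237 in *Trem-2-/-* AM. *Cd79b* stood at 6.05 and 6.14, and *Pax5* at 5.49 and 5.64. The part of dendritic and B cells in the rise of *Cd86* and *Icosl* was not tested.

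Among the remaining lists, 11 T and NK cell markers gave no calls, with a summed signal of 3973 to 4059 in WT and 3816 to 3934 in *Trem-2-/-* AM. Most of it came from *Cd2*, at 11.84 in WT and 11.78 in *Trem-2-/-* AM, and the other 10 summed to 340 to 363 and 350 to 359. *Thy1* differed by 0.05 and *Cd8a* by -0.10. Neutrophil markers gave no calls among 11, of which 9 had a positive log2 fold change, and their summed signal was 868 to 898 in WT and 1014 to 1040 in *Trem-2-/-* AM. *Csf3r* differed by 0.64 (adjusted p = 0.070 from limma) and *Mmp8* by 0.21, both without overlap of the genotypes, and *S100a8* by 0.02. Epithelial markers gave 2 higher of 13, *Cldn18* and *Scgb1a1*, and their summed signal was 1310 to 1365 in WT and 1662 to 1683 in *Trem-2-/-* AM, while *Cdh1* differed by -0.45, *Krt8* by 0.83, *Epcam* by -0.09 and *Sftpc* by 0.44 without passing. AM markers gave 2 higher of 16, *Car4* and *Fabp1*, with a summed signal of 60577 to 60780 and 58961 to 60189, and *Siglecf* differed by -0.21 (adjusted p = 0.38 from limma). With an array left out, 0 or 1 call was left in the AM and in the epithelial list, *Car4* or *Cldn18*. The part of these cells in the ligand calls was not tested.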

How the data were processed

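RNA of AM was hybridized to Affymetrix murine gene-level 1.0 ST arrays, 2 per genotype. The authors applied the robust multi-array average (RMA) to all arrays and deposited log2 values per probe set. RMA (version not given) and mm9 are named in the submitters' processing notes. Scanner intensities and detection calls were not analysed here. Every value column was used, and the labels gave genotype and replicate number.

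The platform annotation gave gene symbols. Where a gene has several probe sets, only its brightest by mean log2 was used. Symbols were matched by gene identifier to RefSeq genes of GRCm38.p6, used for chromosomes, gene order and promoters. The comparison of genotypes used limma 3.58.1 (lmFit, then eBayes; R 4.3.3), two-sided and adjusted over 19946 genes, without a filter or a term for the replicate number. The fitting code was tested on simulated data. SAM at a false-discovery rate of 5%, named in the study's methods, was reimplemented from its definition over all 6 assignments of the 4 arrays.

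The members and gene lists were chosen with earlier results of these data known. Named are the 10 ligands and *Trem2*, the called genes of each pathway list (up to the 4 largest), 18 fixed pathway genes, the 3 brightest markers of each cell type and 8 fixed markers. Some of these are not reported here. The replicate numbers mark no stated pairing, and the deviations of same-numbered arrays correlated at -0.05 over genes.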

Additional observations from a re-analysis of the deposited data

How the results depend on the processing

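Each result was recomputed under 9 other settings and with each array left out. *Icosl* passed in 8 and *Cd86* in 7 of the 9. Both counts include the methods' t-test without adjustment. With Benjamini-Hochberg adjustment, the p of that t-test was 0.41 for *Icosl* and 0.44 for *Cd86*. The 9 settings reuse the same arrays, so the counts are not independent evidence. The 2 ligands called higher became 1 after quantile normalization, and 0 with the methods' t-test after Benjamini-Hochberg adjustment and with any array left out (0 to 0). That t-test unadjusted called 1 ligand lower, *Cd276*. *Tnfsf9* ranged from -0.27 to 0.20 with an array left out and reversed to 0.11 without WT replicate 2 and 0.20 without *Trem-2-/-* replicate 2, and *Cd83* ranged from -0.16, reversed without WT replicate 1, to 0.23. The cause was not tested. A minimum mean log2 of 6 left *Pdcd1lg2*, *Tnfsf9* and *Tnfsf4* untested. With an array left out, the lone array is assumed to vary like the others.

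Against 86 genes higher and 27 lower, SAM called 166 higher and 19 lower, and an intensity trend with robust variance 379 and 290. The minimum mean log2 of 6 gave 207 and 150, and the t-test 782 and 1052 unadjusted and 0 and 0 adjusted. With an array left out, 22 to 43 were higher and 4 to 7 lower. With the replicate block 98 were higher and 31 lower, *Icosl* had an adjusted p of 0.022 and *Cd86* of 0.043 from limma, and no ligand call changed.

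Of the lists, MHC class II gave 7 higher by the unadjusted t-test, 0 adjusted, and 1 to 3 with an array left out. Other TNF ligands gave 1 higher by the unadjusted t-test. Accessory molecules gave 1 higher and 3 lower by it, 2 lower with the trend and 1 lower with the minimum. CD40 and NF-kB signalling gave 2 higher and 1 lower by it, 1 lower with the trend and 1 lower with the minimum. Regulators gave 2 higher with the trend and 2 by the t-test.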
